A study of Mus musculus with 2 samples.

Results

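The genes described here are 10 that carry the recognition and uptake of apoptotic cells, namely the receptor kinases Mertk, Axl and Tyro3, their ligands Gas6 and Pros1, the phosphatidylserine receptor Timd4, the bridging proteins Mfge8 and Tgm2, and the cytoplasmic pair Elmo1 and Dock1. They were chosen by name, with earlier results of these data known, and all 10 were found among the 50608 rows of the deposited table. RNA was sequenced from peritoneal macrophages of C57BL6J mice, from males and females combined, with E15.5 recorded as the stage. The treated cells gave 1 library and had received GW3965, a man-made agonist of LXRs (liver X receptors). The control cells gave 1 library and had received DMSO, the solvent. The sources used here give no dose, no time and no number of animals. The name of the treated column shares only its first letters with the label of the GW3965 sample, and every statement on GW3965 rests on that match.

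Dying cells turn phosphatidylserine, a lipid of the inner leaflet, to their surface, and phagocytes read it as a signal to engulf. Some receptors, such as Timd4, bind the lipid directly. Others use a soluble bridge: Gas6 and protein S (Pros1) link it to the TAM kinases Tyro3, Axl and Mertk, and Mfge8 links it to alpha v integrins. Inside the phagocyte, Elmo1 and Dock1 together activate Rac, which drives the actin movement of engulfment. In mouse macrophages Mertk and Tgm2 are known LXR targets, and the LXRs are themselves activated by sterols from engulfed cells.

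Values are FPKM as deposited, fragments scaled to gene length and to sequencing depth, so levels can be compared between genes. The steps between values gave the depths as 75287120 reads for GW3965 and 101866062 reads for DMSO, and from these the whole reads behind each gene. Since each group is 1 library, no difference can be set against a spread between replicates and none was tested. Intervals are exact 95% intervals for the counting of reads and cover nothing else. A gene is called measured at a mean of at least 1 FPKM, which 11889 rows reached, and higher or lower at 1.5-fold after 1 FPKM is added to both values. Adding 1 FPKM makes the change of weakly expressed genes look smaller than it was. The median measured row had a log2 ratio of 0.24 on that scale, and a ratio of 1.25 with nothing added, and a log2 ratio from which this median was subtracted is called centred. As a check of the treatment, Abca1, the sterol exporter and best known LXR target, had 261 FPKM in GW3965, against 19.9 FPKM in DMSO. Abcg1, Srebf1, Mylip and Lpcat3, also LXR targets, had log2 ratios of 1.73, 1.80, 2.12 and 1.57.

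Promoter sequences were read for the members because LXRs act through a known DNA element. RefSeq promoters (GRCm38.p6) were found for 9 of the 10 members, and Tgm2 had none. LXRs bind, with RXR, the element known as DR4, a direct repeat of the half-site AGGTCA with a spacer of 4 bases, and this repeat was searched on both strands in the 250 bases before each annotated start. Each of the lines below gives 1 promoter 5′ to 3′ on the strand of its gene, with the window nearest to the repeat in capitals. Mertk is shown as a member called higher, Mfge8 as the most abundant member, and Abca1 as the target with a known element.
Mertk: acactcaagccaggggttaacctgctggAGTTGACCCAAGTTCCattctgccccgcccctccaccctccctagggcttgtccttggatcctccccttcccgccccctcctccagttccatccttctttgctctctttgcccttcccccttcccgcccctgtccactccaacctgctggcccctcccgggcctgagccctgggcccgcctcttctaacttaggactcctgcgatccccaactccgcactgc
Mfge8: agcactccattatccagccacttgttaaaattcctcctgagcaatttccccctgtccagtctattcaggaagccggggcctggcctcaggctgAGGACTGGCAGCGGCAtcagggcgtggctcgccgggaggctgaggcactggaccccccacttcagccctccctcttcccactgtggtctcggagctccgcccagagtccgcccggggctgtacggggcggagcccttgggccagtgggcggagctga
Abca1: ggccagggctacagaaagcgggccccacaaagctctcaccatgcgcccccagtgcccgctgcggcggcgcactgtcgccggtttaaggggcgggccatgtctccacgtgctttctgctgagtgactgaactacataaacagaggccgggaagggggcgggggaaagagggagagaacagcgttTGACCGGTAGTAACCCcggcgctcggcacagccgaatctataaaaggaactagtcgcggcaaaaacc
The Mertk promoter (chr2:128698665-128698914, plus strand) came within 4 mismatches of the 12 fixed bases, and the Mfge8 promoter (chr7:79149061-79149310, minus strand) within 5. In Abca1 (chr4:53159896-53160145, minus strand) the window lay 67 to 52 bases before the start, on the opposite strand, with 3 mismatches. Timd4, which was hardly detected, also had a window with 3 mismatches. Of 32851 promoters of this length, 18.5% came within 3 mismatches and 70.6% within 4, so the Mertk window was of a kind most promoters have. These are matches of letters only, and the 250 bases do not hold elements farther away. The half-site AGGTCA, which 14.02% of promoters hold, was absent from the 250 bases of Mertk and of Mfge8 and present in those of Timd4. It was also absent from those of Abca1, the target with a known element, so its absence does not set Mertk apart from that target.

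Mertk, the TAM kinase known as the main engulfment receptor of tissue macrophages, was higher in the GW3965 library. It had 13.9 FPKM in GW3965, against 6.79 FPKM in DMSO, from 4124 GW3965 and 2726 DMSO reads. The ratio was 2.05 (counting interval 1.95 to 2.15), with a log2 ratio of 0.94, or 0.69 centred. With a shorter gene length the reads could also be 2062 in GW3965 and 1363 in DMSO, with an interval of 1.91 to 2.19. Only 1.12% of measured rows had a higher log2 ratio. Mertk lies at chr2:128698956-128802894 on the plus strand of GRCm38 and shares no 100-base stretch of its transcripts with the transcripts of another gene.

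Axl, the TAM kinase that binds Gas6 but not protein S, was low. It lies at chr7:25757273-25788705 on the minus strand. It had 2.38 FPKM in GW3965, against 1.40 FPKM in DMSO, from 868 GW3965 and 692 DMSO reads. The ratio was 1.70 (1.53 to 1.88), but with 1 FPKM added the log2 ratio was 0.49, below the 1.5-fold limit, and 0.25 centred. Whether Axl passed the limit thus depended on the value added, and it also depended on the scaling. With nothing added but centred, its log2 ratio of 0.45 was below the limit. With 1 FPKM added and both columns scaled to the same sum of FPKM, its log2 ratio of 0.69 was past it. Its reads could also be 217 in GW3965 and 173 in DMSO, since a shorter gene length gives the same FPKM, which would widen the interval to 1.38 to 2.08.

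Tyro3 (chr2:119797733-119818104, plus strand), the TAM kinase best known from the nervous system, was near the limit of detection. It had 0.086 FPKM in GW3965, against 0.061 FPKM in DMSO, from 41 GW3965 and 39 DMSO reads, a ratio of 1.42 (0.895 to 2.26). A difference in Tyro3 was therefore not detectable at this depth. The order of the TAM kinases was the same in both libraries, with Mertk above Axl and Axl above Tyro3, and none of their counting intervals overlapped within a library. Mertk was 5.85 times the level of Axl in GW3965 and 4.85 times in DMSO. Mertk made up 84.9% of the summed TAM kinase FPKM in GW3965 and 82.3% in DMSO, and the sum itself was 16.4 FPKM in GW3965, against 8.25 FPKM in DMSO.

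**Figure D1:**
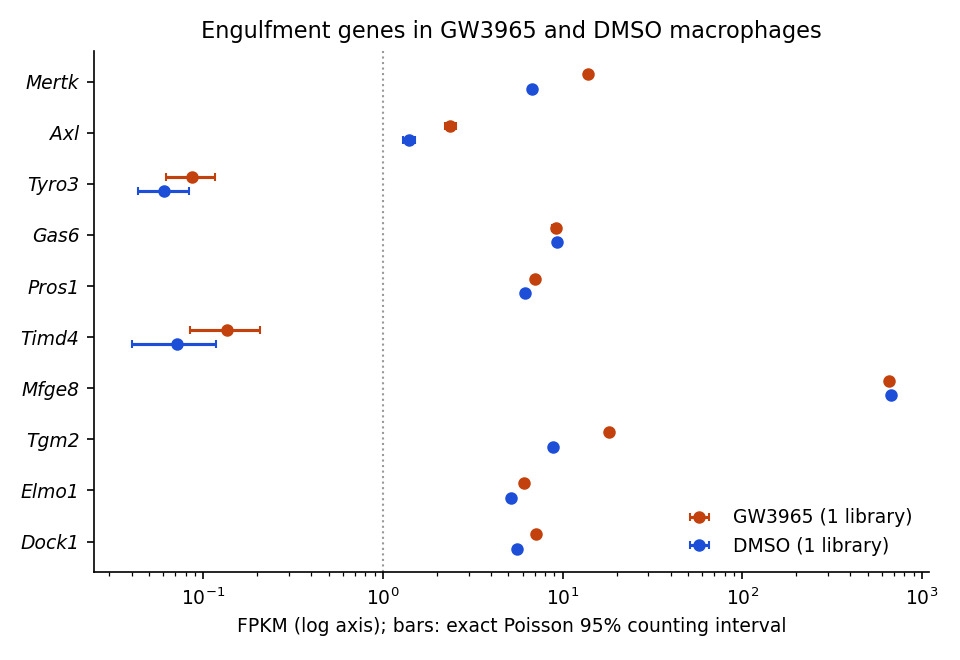
FPKM of each of the 10 genes on a log axis, with GW3965 above DMSO in each row. Points are single libraries, bars are exact Poisson 95% counting intervals and the dotted line is 1 FPKM. Mfge8 stands far above the rest at 659 FPKM in GW3965 and 674 FPKM in DMSO, and Tyro3 and Timd4 lie below 1 FPKM in both libraries. Among genes whose bars do not overlap, the GW3965 and DMSO points are farthest apart for Mertk and Tgm2, followed by Axl.

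Neither TAM ligand was called higher or lower. Gas6 (chr8:13465374-13494490, minus strand), a vitamin K dependent protein that binds all TAM kinases, had 9.15 FPKM in GW3965, against 9.28 FPKM in DMSO, from 1700 GW3965 and 2334 DMSO reads. Its ratio was 0.986 (0.925 to 1.05), and its log2 ratio of -0.02 became -0.26 after centring. With a shorter gene length the Gas6 reads could also be 850 in GW3965 and 1167 in DMSO, with an interval of 0.901 to 1.08. Protein S, encoded by Pros1 (chr16:62854307-62929346, plus strand) and also known as an anticoagulant, had 7.03 FPKM in GW3965, against 6.19 FPKM in DMSO, from 2075 GW3965 and 2472 DMSO reads. Its ratio was 1.14 (1.07 to 1.20), with a log2 ratio of 0.16, or -0.08 centred. Both ligands thus lay below the median of measured rows, and the sign of Pros1 depended on the centring. With both columns scaled to the same sum of FPKM, which raised all GW3965 values alike, Gas6 had a log2 ratio of 0.22. The median log2 ratio of the measured members was then 0.49, so Gas6 stayed below it.

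In the GW3965 library Mertk stood above both ligands, at 1.52 times the level of Gas6 and 1.98 times that of Pros1. In DMSO it was at 0.731 times the level of Gas6 and 1.10 times that of Pros1. Gas6 needs gamma-carboxylation to bind phosphatidylserine, as does protein S, and the enzymes of this step were measured in both libraries. Ggcx, the carboxylase, had 1.92 FPKM in GW3965, against 1.5 FPKM in DMSO. Vkorc1, which recycles vitamin K, had 17.0 FPKM in GW3965 and 14.4 FPKM in DMSO. Their centred log2 ratios were both -0.02, and that of Vkorc1l1, a paralogue of Vkorc1, was 0.03.

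**Figure D2:**
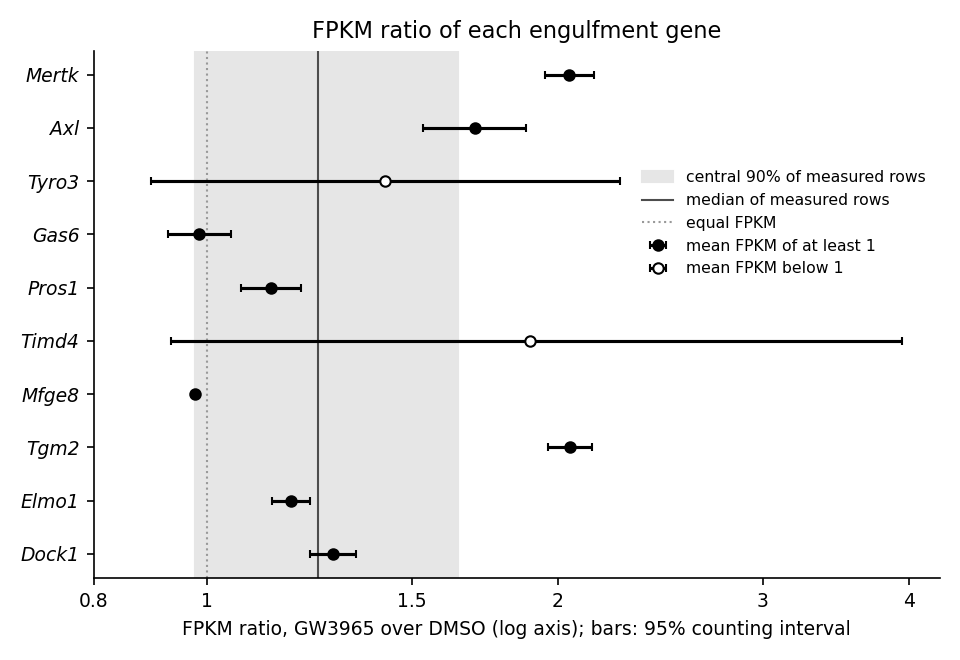
FPKM ratio of GW3965 over DMSO for each gene on a log axis, with nothing added, and 95% counting intervals as bars. The grey band holds the central 90% of measured rows (ratios 0.976 to 1.64), the solid line is their median of 1.25 and the dotted line marks equal FPKM. Mertk, Axl and Tgm2 lie to the right of the band, Gas6 and Mfge8 lie near its left edge, and the open points of Tyro3 and Timd4 have wide bars.

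Tgm2, tissue transglutaminase, was the other member called higher. The protein crosslinks other proteins and at the cell surface helps alpha v beta 3 integrin and Mfge8 in engulfment. Tgm2 had 18.1 FPKM in GW3965, against 8.83 FPKM in DMSO, from 5197 GW3965 and 3431 DMSO reads. Its ratio was 2.05 (1.96 to 2.14), with a log2 ratio of 0.96, or 0.71 centred, and 1.05% of measured rows had a higher one. Tgm2 lies at chr2:158116402-158146436 on the minus strand. Genes on the opposite strand, Rprd1b and Gm20412, share 8.03% and 13.7% of its exonic bases, and it is not known whether reads were counted by strand. Rprd1b itself had 2.03 FPKM in GW3965, against 1.80 FPKM in DMSO, a ratio of 1.13.

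The other transglutaminase genes were far lower than Tgm2, which made up 82.1% of the summed FPKM of 8 family members in GW3965 and 74.2% in DMSO. Tgm1, the keratinocyte enzyme, was the only other measured member. It had 2.53 FPKM in GW3965, against 1.98 FPKM in DMSO, and its log2 ratio of 0.24 was at the median of measured rows. F13a1, the chain of coagulation factor XIII that macrophages can make, had 0.808 FPKM in GW3965 and 0.758 FPKM in DMSO.

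Mfge8, lactadherin (chr7:79133768-79149060, minus strand), was by far the most abundant member. It had 659 FPKM in GW3965, against 674 FPKM in DMSO, from 207574 GW3965 and 287406 DMSO reads. The ratio was 0.977 (0.972 to 0.983), with a log2 ratio of -0.03, or -0.28 centred, and 95.3% of measured rows had a higher one. With a shorter gene length the reads could also be 103787 in GW3965 and 143703 in DMSO, with an interval of 0.969 to 0.985. Mfge8 stood at 36.4 times the level of Tgm2 in GW3965 and 76.3 times in DMSO. Its nearest relative among bridging proteins, Edil3, had 0.113 FPKM in GW3965, against 0.069 FPKM in DMSO. Mfge8 was the lowest of the measured members by log2 ratio, with Gas6 next to it, and these were the only measured members below 0 as deposited.

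The alpha v integrins that Mfge8 binds were not uniform. Itgav, the alpha v chain, had 11.8 FPKM in GW3965, against 8.19 FPKM in DMSO, with a centred log2 ratio of 0.24. Itgb3, the beta 3 chain, was lower in GW3965, with 7.85 FPKM there, against 14.6 FPKM in DMSO, a ratio of 0.537 (0.516 to 0.558). Centred, its log2 ratio was -1.06. With a shorter gene length the interval of the Itgb3 ratio would be 0.507 to 0.568. Itgb5, the beta 5 chain, had 38.4 FPKM in GW3965 and 33.6 FPKM in DMSO, with a centred log2 ratio of -0.06. The beta 5 chain was thus above the beta 3 chain in both libraries.

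Timd4 (chr11:46810800-46844332, plus strand), the phosphatidylserine receptor known as a mark of resident peritoneal macrophages, was hardly detected. It had 0.135 FPKM in GW3965, against 0.072 FPKM in DMSO, from 21 GW3965 and 15 DMSO reads. The ratio of 1.89 has an interval of 0.931 to 3.95, and a difference was not detectable at this depth. Rows this low were in general higher in GW3965, with a median ratio of 1.77 over 14147 rows between 0.05 and 0.2 FPKM, and 44.7% of those rows had a higher ratio than Timd4. Within the TIM family only Havcr2 (Tim-3) was measured, at 2.11 FPKM in GW3965, against 1.81 FPKM in DMSO.

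Of 10 listed markers of resident peritoneal macrophages, 2 were measured, Cd93 and Naip1, and the other 8 were below the limit of a measured row. Cd93 had 82.8 FPKM in GW3965, against 79.8 FPKM in DMSO. Naip1 had 1.63 FPKM in GW3965, against 0.744 FPKM in DMSO, with a log2 ratio of 0.59 as deposited, past the limit, and of 0.35 centred. Gata6, the transcription factor that defines these cells, had 0.618 FPKM in GW3965, against 0.607 FPKM in DMSO, and Icam2 had 0.456 FPKM in GW3965 and 0.413 FPKM in DMSO. All 8 general macrophage markers were measured, with Lyz2 at 4822 FPKM in GW3965, against 4052 FPKM in DMSO, and Adgre1 (F4/80) at 35.9 FPKM in GW3965 and 29.3 FPKM in DMSO. The label of macrophage thus has its defining markers, while most of those listed for the resident peritoneal type were not measured.

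Elmo1 and Dock1 lay close to the median of all measured rows. Elmo1 (chr13:20090596-20608353, plus strand), the adaptor that joins RhoG to Dock1, had 6.13 FPKM in GW3965, against 5.19 FPKM in DMSO, from 5339 GW3965 and 6116 DMSO reads. Its ratio was 1.18 (1.14 to 1.23), with a log2 ratio of 0.20, or -0.04 centred. Dock1, or Dock180 (chr7:134670654-135173639, plus strand), the exchange factor that loads Rac with GTP, had 7.16 FPKM in GW3965, against 5.58 FPKM in DMSO, from 3563 GW3965 and 3758 DMSO reads. Its ratio was 1.28 (1.23 to 1.34), with a log2 ratio of 0.31, or 0.07 centred. The level of Elmo1 was 0.856 times that of Dock1 in GW3965 and 0.930 times in DMSO. The antisense gene Gm32036 shares 3.20% of the exonic bases of Elmo1.

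Neither was the leading member of its family in these cells. Elmo2 had 10.4 FPKM in GW3965, against 8.02 FPKM in DMSO, and stood above Elmo1 in both libraries, while Elmo3 had 1.27 FPKM in GW3965 and 1.20 FPKM in DMSO. Dock2, the exchange factor of blood cells, had 24.3 FPKM in GW3965, against 21.9 FPKM in DMSO, or 3.40 times the level of Dock1 in GW3965 and 3.92 times in DMSO. Of the 9 DOCK genes listed, Dock4 had the highest centred log2 ratio, 0.23, with 3.58 FPKM in GW3965, against 2.29 FPKM in DMSO, and Dock10 the lowest of the measured ones, -0.19. Dock3 was not measured. Rac1, a target of Dock1, had 73.8 FPKM in GW3965, against 62.3 FPKM in DMSO, and Rac2 had 44.9 FPKM in GW3965 and 40.0 FPKM in DMSO.

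**Figure D3:**
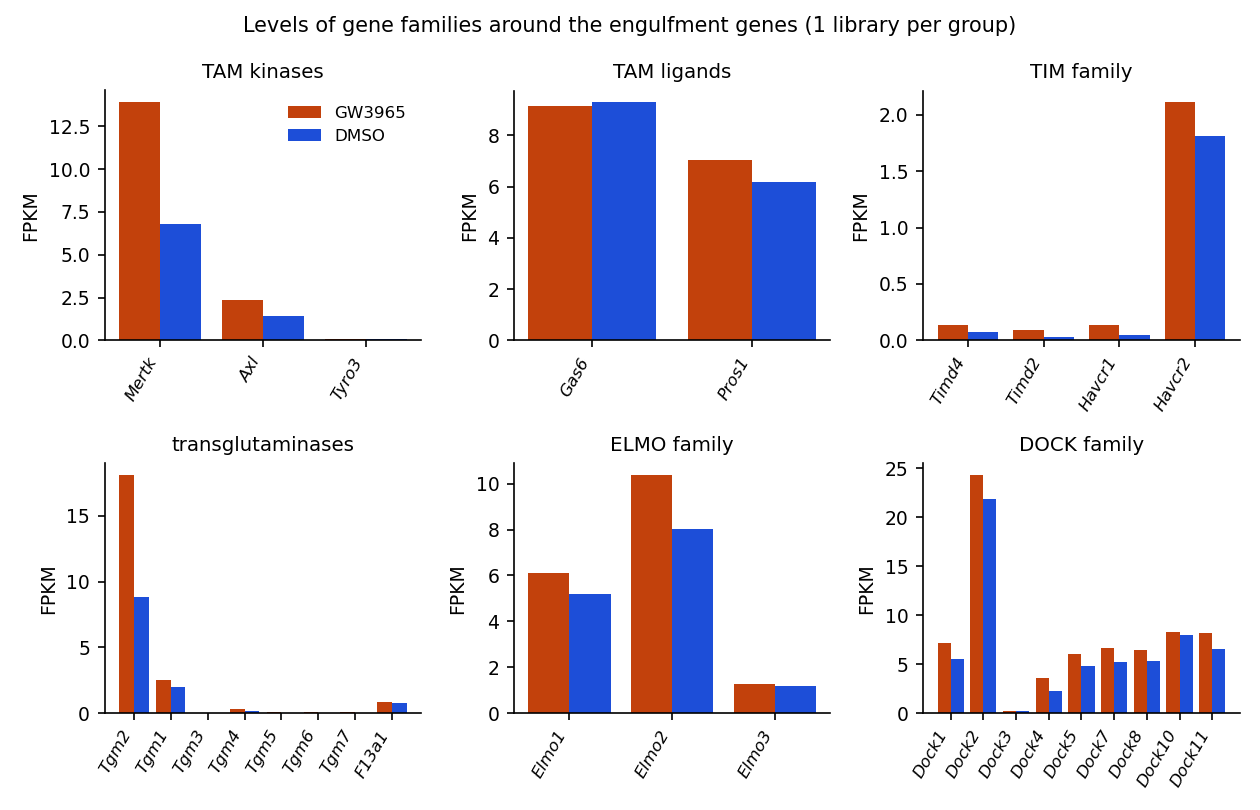
FPKM of 6 gene families on linear axes that start at 0 and differ between panels, with the GW3965 bar left of the DMSO bar for each gene and 1 library per bar. Mertk and Tgm2 are the tallest bars of their families and the pairs with the widest gap. Elmo1 and Dock1 stand below Elmo2 and Dock2, and Timd4 is far below Havcr2.

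Over the 8 measured members, 2 were higher by 1.5-fold and 0 lower, and the same 2, Mertk and Tgm2, were higher after centring. Among all 11889 measured rows 3.46% were higher and 0.0757% lower as deposited, or 1.38% and 0.336% after centring. The median log2 ratio of the measured members was 0.26, beside 0.24 for all measured rows, and 4 members lay above that median and 4 below it. By role, 1 of 2 measured kinases, neither of the 2 ligands, 1 of 2 bridges and neither Elmo1 nor Dock1 were called. With nothing added to the FPKM, Axl was the third gene at 1.5-fold, where 10.2% of all measured rows were higher and 0.185% lower. With nothing added but the ratios centred, Mertk and Tgm2 alone were past the limit, where 2.35% of all measured rows were higher and 1.05% lower.

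The wider engulfment pathway was read from 10 lists with 134 genes, of which 133 matched a row and 96 were measured. Of these, 4 were higher by 1.5-fold and 1 was lower, beside 3.46% and 0.0757% of all measured rows. After centring, 1 was higher and 2 were lower, beside 1.38% and 0.336% of all measured rows. The counts of higher genes are thus near the background. The median log2 ratio of the 96 genes was 0.24, the same as that of all measured rows. The higher genes were Cd36, C1qb, Pik3cd and Cd47, and the lower one was Itgb3. Pik3cd, the leukocyte PI3 kinase subunit, was the only one still higher after centring, with 8.79 FPKM in GW3965, against 4.47 FPKM in DMSO, a ratio of 1.97 (1.88 to 2.06).

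Among receptors, 13 of 20 were measured and 1 was higher and 1 lower, beside 3.46% of all measured rows higher and 0.0757% lower. Cd36, a scavenger receptor that also binds oxidised phosphatidylserine, had 484 FPKM in GW3965, against 277 FPKM in DMSO, and its centred log2 ratio of 0.56 was just below the limit. Cd300a, an inhibitory receptor for phosphatidylserine, had a centred log2 ratio of 0.24. Lrp1, a large receptor of the LDL receptor family that takes part in engulfment, had 39.0 FPKM in GW3965, against 46.9 FPKM in DMSO, and a centred log2 ratio of -0.50. Of the direct receptors Stab1, Stab2 and Adgrb1 (Bai1), Stab1 alone was measured, with 1.68 FPKM in GW3965, against 1.30 FPKM in DMSO. Among bridges and opsonins, 8 of 15 were measured and 1 was higher, beside the same 3.46% of all measured rows. C1qb, a chain of complement C1q, had 39.9 FPKM in GW3965, against 23.0 FPKM in DMSO, while C1qc, C3 and calreticulin (Calr) had centred log2 ratios of 0.26, 0.18 and 0.17. C1qa, another chain of C1q, had 4.75 FPKM in GW3965, against 4.16 FPKM in DMSO, and a centred log2 ratio of -0.09.

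Of the 22 measured genes of the ELMO, DOCK and Rac list 0 were called in either direction, beside 3.46% of all measured rows called higher and 0.0757% lower, so that a count of 0 is near the background. Vav3, Crk and Vav1, which link receptors to Rac, had centred log2 ratios of 0.23, 0.21 and 0.18, while those of Git1 and Rhog were -0.42 and -0.21. Of 22 measured genes of phagosome maturation and digestion 0 were called, again near the background. Rab5a, Lamp2, Dnase2a and Uvrag had centred log2 ratios of 0.16, 0.14, 0.12 and 0.12. Cyba, Cybb and Ncf1, subunits of the phagocyte NADPH oxidase, had -0.40, -0.35 and -0.25. Of the receptors for signals that attract phagocytes 5 were measured and 0 called, led by S1pr1, a receptor of sphingosine 1-phosphate, with 4.34 FPKM in GW3965, against 2.84 FPKM in DMSO. P2ry6 and P2ry2, receptors of nucleotides, had centred log2 ratios of 0.03 and -0.07, and S1pr2 had 37.1 FPKM in GW3965, against 31.2 FPKM in DMSO. Of scramblases and flippases, which place phosphatidylserine, 7 were measured and 0 called, with Plscr1 at a centred log2 ratio of 0.27 and Plscr3 at -0.32. Tmem30a, the flippase subunit, and Atp8a1 had 0.16 and 0.02.

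The list of TAM shedding and feedback had 9 measured genes, with Pik3cd the 1 called, beside 3.46% of all measured rows higher and 0.0757% lower. Adam17, the protease that cleaves Mertk from the cell surface, had 18.0 FPKM in GW3965, against 17.6 FPKM in DMSO. Adam10, which cleaves Axl, had 23.0 FPKM in GW3965 and 17.6 FPKM in DMSO. The centred log2 ratios of Adam17 and Adam10 were -0.21 and 0.12. Ube3a and Cblb, both ubiquitin ligases, had centred log2 ratios of 0.18 and 0.05. Socs1 and Socs3, feedback inhibitors induced by TAM signalling, were not measured. Genes that restrain engulfment had 6 measured members. Cd47, the signal against being eaten, was called higher as deposited, with 35.8 FPKM in GW3965, against 23.1 FPKM in DMSO, and a centred log2 ratio of 0.37. Its receptor Sirpa had 131 FPKM in GW3965 and 138 FPKM in DMSO, with a centred log2 ratio of -0.31. Cd24a had a centred log2 ratio of -0.59, just past the lower limit. The phosphatase Ptpn11 and the inhibitory receptor Pirb had centred log2 ratios of -0.03 and -0.05.

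**Figure D4:**
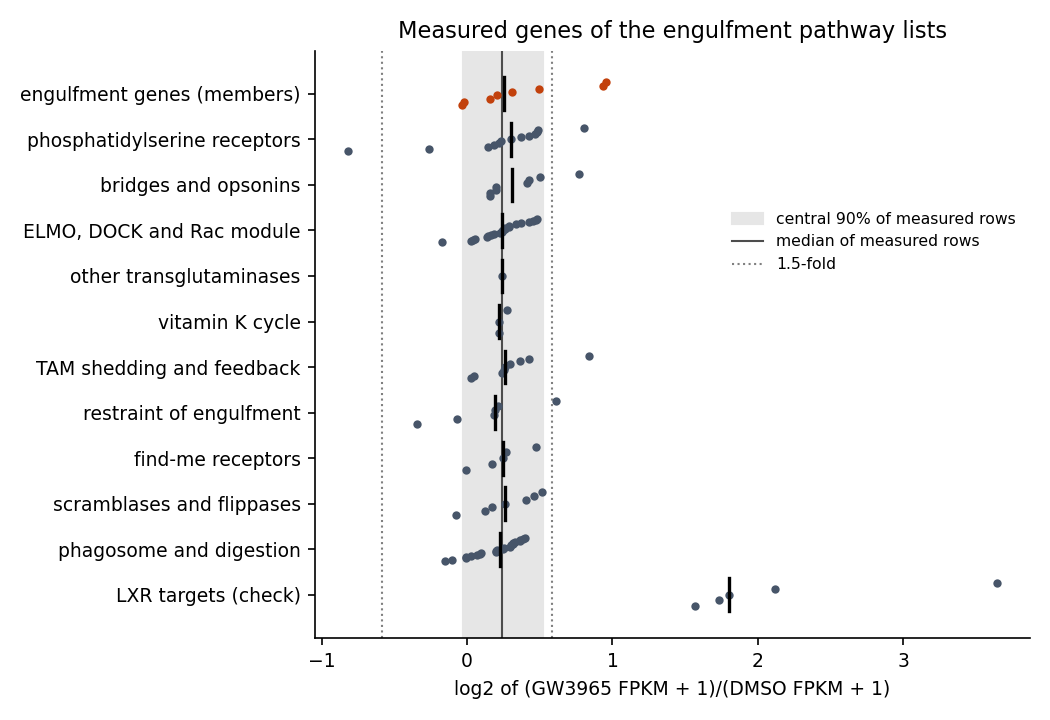
Log2 of (GW3965 FPKM + 1)/(DMSO FPKM + 1) for measured genes, with 1 point per gene, short bars at list medians, a grey band for the central 90% of measured rows, a solid line at their median and dotted lines at 1.5-fold. The 8 engulfment genes have their median at 0.26, with Mertk and Tgm2 at 0.94 and 0.96. The LXR targets have theirs at 1.80, and the lists of the wider pathway have theirs between 0.19 and 0.31.

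Cells other than macrophages also express several members, among them Gas6, Pros1, Axl and Mfge8. Of 13 mesothelial and fibroblast markers 7 were measured, and their summed level was 31.7 FPKM in GW3965, against 21.1 FPKM in DMSO. None of the 12 that matched a row was at 0 in both libraries, and Msln and Wt1 stood below 1 FPKM in each. Dcn, the highest of them by log2 ratio with 1 FPKM added, had 11.6 FPKM in GW3965, against 6.91 FPKM in DMSO. With nothing added, the Dcn ratio of 1.67 was below those of the measured mesothelial markers Lrrn4, 1.88, and Upk3b, 1.81. Upk3b had 2.51 FPKM in GW3965, against 1.38 FPKM in DMSO. Col1a1 was the lowest of the measured ones, with a centred log2 ratio of -0.17. The B cell markers summed to 78.1 FPKM in GW3965, against 20.5 FPKM in DMSO, with 4 of 10 markers measured. Of these sums Ighm made 64.4 FPKM in GW3965 and 9.26 FPKM in DMSO. Dcn was the 1 marker of its list called higher as deposited, and Ighm the 1 of its list, beside 3.46% of all measured rows. After centring, Dcn was below the limit and Ighm past it, with a centred log2 ratio of 2.43. The share of all measured rows higher was then 1.38%. Of the remaining marker lists, 1 of 10 dendritic cell, 2 of 7 endothelial, 2 of 7 neutrophil, 0 of 9 T and NK cell and 0 of 6 mast cell markers were measured, and 0 of them were called. With 3.46% of all measured rows higher and 0.0757% lower, a count of 0 among so few rows is near the background. Itgax, the measured dendritic cell marker, had 107 FPKM in GW3965, against 116 FPKM in DMSO. The part of other cells in the values of Mertk, Axl and Tgm2 was not tested. In bulk RNA such as this, more cells of a type and more RNA per cell cannot be told apart.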

How the data were processed

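The authors deposited FPKM values in 1 table, with a column for each library. STAR 2.3.0, HTSeq 0.5.4p3 and the build GRCm38 (mm10) are named in the submitters' processing notes, which state no role for them. Annotation and strand setting: not given in the sources used here. TruSeq RNA libraries (Illumina) were prepared from total RNA, per the labels' protocols.

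Rounded FPKM values are whole reads divided by depth and a whole length. The depth ratio of the libraries, 1.35, and then both depths were found from these steps, with GENCODE M21 exon lengths (GRCm38) less 99 bases as a start, as a read of 100 bases gives. At these depths 65.7% of 9798 rows implied a whole length from their lowest possible reads, against 0.959% with the depth moved by 1%. Reads per gene are known up to a whole-number multiple, and the multiple nearest the M21 length was taken. Ratio intervals are exact conditional (Clopper-Pearson) 95% intervals, and no differential test was possible. In a gene of 1 kb, a single read adds 0.0133 FPKM in GW3965 and 0.00982 FPKM in DMSO.

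The members and gene lists were chosen with earlier results of these data known. The 20 lists hold 219 entries, of which 4 matched no row, also by RefSeq synonyms. Named genes are all members, the LXR targets and the 4 measured genes of each pathway list with the largest absolute log2 ratio, of which 1 is not reported here. Others are family relatives, or genes picked after their values were seen (Itgb5, Stab1, Lrp1, C1qa, Git1, Rhog, Cyba, Cybb, Ncf1, Plscr3, Rac1, Rac2, Adam17, Socs1, Socs3, Sirpa, Rprd1b and markers). The range of 0.05 to 0.2 FPKM for low rows was also set then. The steps were tested on simulated data. Software was scipy 1.17.1, pandas 2.3.3 and numpy 2.4.6 under Python 3.11.15, with figures from matplotlib 3.10.9.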

Additional observations from a re-analysis of the deposited data

How the results depend on the processing

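No paired analysis was possible because there was a single library of each kind. Mertk and Tgm2 stayed past 1.5-fold in GW3965 under each of the 7 other scalings and pseudocounts, with log2 ratios from 0.64 to 1.19 and from 0.66 to 1.21, and with 1 FPKM added 0 members passed a 2-fold limit as deposited, while both passed it with a pseudocount of 0.1, with the same sum and, uncentred, with nothing added. Axl ran from 0.25 to 0.76. Gas6 ran from -0.34 to 0.22 and Mfge8 from -0.35 to 0.23, above 0 only with the same sum of FPKM. Pros1 and Elmo1 changed sign with the centring. Depth limits Tyro3 and Timd4.

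The median log2 ratio of the members, 0.26 as deposited, was 0.18 with no filter on low values, 0.013 centred, 0.49 with the same sum, -0.012 with the same upper quartile and -0.018 centred with nothing added, the last chosen after seeing the data. Against 4 higher and 1 lower genes of the wider pathway, there were 7 higher with a pseudocount of 0.1 or with nothing added, 1 and 2 centred, 28 and 0 with the same sum, 0 and 2 with the same upper quartile, and 0 and 0 at 2-fold. Against 411 higher and 9 lower rows, there were 1024 and 20 with a pseudocount of 0.1, 14 lower with one of 0.5, 17 lower with no filter, 224 and 5 with a minimum mean of 5 FPKM, 164 and 40 centred, 2637 and 1 with the same sum, 153 and 34 with the same upper quartile, 117 and 0 at 2-fold, 195 and 4 without NONCODE, Gm and Rik rows, and 1215 and 22 with nothing added. Apart from the stricter limit, the filters and the rows left out, the cause was not tested.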
